A study of Mus musculus with 35 samples.

Results

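Brain-derived neurotrophic factor (BDNF), neurotrophin-3 and their receptors were examined in RNA-seq counts from the striata of 35 mice. The 8 genes were taken by symbol from the count table, whatever their values, and are 8 of 32863 genes kept. They comprise the ligand genes Bdnf and Ntf3, the receptor kinase genes Ntrk2 (TrkB) and Ntrk3 (TrkC), Ngfr, which encodes the p75 receptor, and Sort1, Sorcs2 and Sorcs3 of the sortilin family. Of these, 7 had enough reads to be tested, and Ntf3 did not.

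The mice were aged 21.7 to 23 weeks, with 1 library per mouse, and fell into 4 genotype groups. The labels give C57B6/J for the HttQ111 and Cre lines, whereas the floxed Hdac2 line came from a C57BL/6/129SeEv mix that had not been completely backcrossed. HttQ111/+ mice carry a lengthened CAG repeat, knocked into 1 copy of the mouse huntingtin gene, and model Huntington's disease. Hdac2 knockout (KO) mice carry floxed Hdac2 alleles and Cre driven by the Ppp1r1b (DARPP-32) promoter, which is active in medium-spiny neurons (MSNs), the principal neurons of the striatum, while other striatal cells keep Hdac2. The groups were Htt+/+ Hdac2 WT (n = 8, 5 males and 3 females), HttQ111/+ Hdac2 WT (n = 7, 4 males and 3 females, 110 to 140 CAG repeats), Htt+/+ Hdac2 KO (n = 9, 5 males and 4 females) and HttQ111/+ Hdac2 KO (n = 11, 8 males and 3 females, 110 to 144 CAG repeats), and the wild-type allele had 7 repeats. Mice called Hdac2 WT have 2 floxed alleles, or 1 in 2 Htt+/+ mice, and none has Cre, so Cre and the loss of Hdac2 cannot be told apart here.

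The libraries held 50339179 to 76939791 counts over the genes kept. Counts of the whole Hdac2 gene, which include the parts outside the deletion and cells without Cre, were 95.5 to 111 CPM (counts scaled to a common library size) in Hdac2 WT and 89.4 to 101 CPM in Hdac2 KO libraries, and the log2 fold change was -0.09 (adjusted p = 0.0552) in Htt+/+ and -0.12 (adjusted p = 0.00198) in HttQ111/+ mice. MSN markers were abundant in every library, with a summed level of 9 genes of 5716 to 9057 CPM. RNA of WT mice was extracted on 24, 25 and 27 May and RNA of KO mice on 26 and 31 May and 3 June, apart from 1 KO library on 25 May and 1 on 27 May. Extraction date and Hdac2 genotype therefore can hardly be told apart.

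Neurotrophins are secreted growth factors, made as precursors (proneurotrophins) that proteases cut to the mature form. Mature BDNF acts mainly through TrkB and neurotrophin-3 mainly through TrkC, both receptor tyrosine kinases that support the survival and synapses of neurons. The precursors bind p75 together with sortilin or its relative SorCS2, a pairing linked to cell death and the withdrawal of synapses. Most striatal BDNF protein is made in the cortex and carried down the axons of cortical neurons to MSNs, which bear TrkB. Reduced supply of BDNF to the striatum is a known feature of Huntington's disease models.

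The receptor and sortilin genes had higher mean levels in the striatum than the ligand genes, though the range of Ngfr overlapped that of Bdnf. On a scale of CPM per kilobase of exon, averaged over the 35 libraries, Ntrk2 had 36.8, Sort1 26.7, Sorcs2 15.4, Sorcs3 4.82, Ntrk3 1.90, Ngfr 0.926, Bdnf 0.179 and Ntf3 0.0557. Ntrk2, Sort1 and Sorcs2 stood at percentiles 95.2, 93.2 and 87.2 of the 25677 genes with a value above 0 on this scale, and Bdnf and Ntf3 at percentiles 37.3 and 29.2. Each gene from Ntrk2 to Ntrk3 exceeded the next in this order in 35 of 35 libraries. Ngfr exceeded Bdnf in 34 libraries and Bdnf exceeded Ntf3 in 30. Between Sorcs2 and Sorcs3, and between Sorcs3 and Ntrk3, the ranges over libraries did not overlap, whereas all other neighbours had overlapping ranges. Reads in introns were counted too, so long genes such as Ntrk2, Sorcs2 and Sorcs3 can gain from their introns on this scale.

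**Figure D1:**
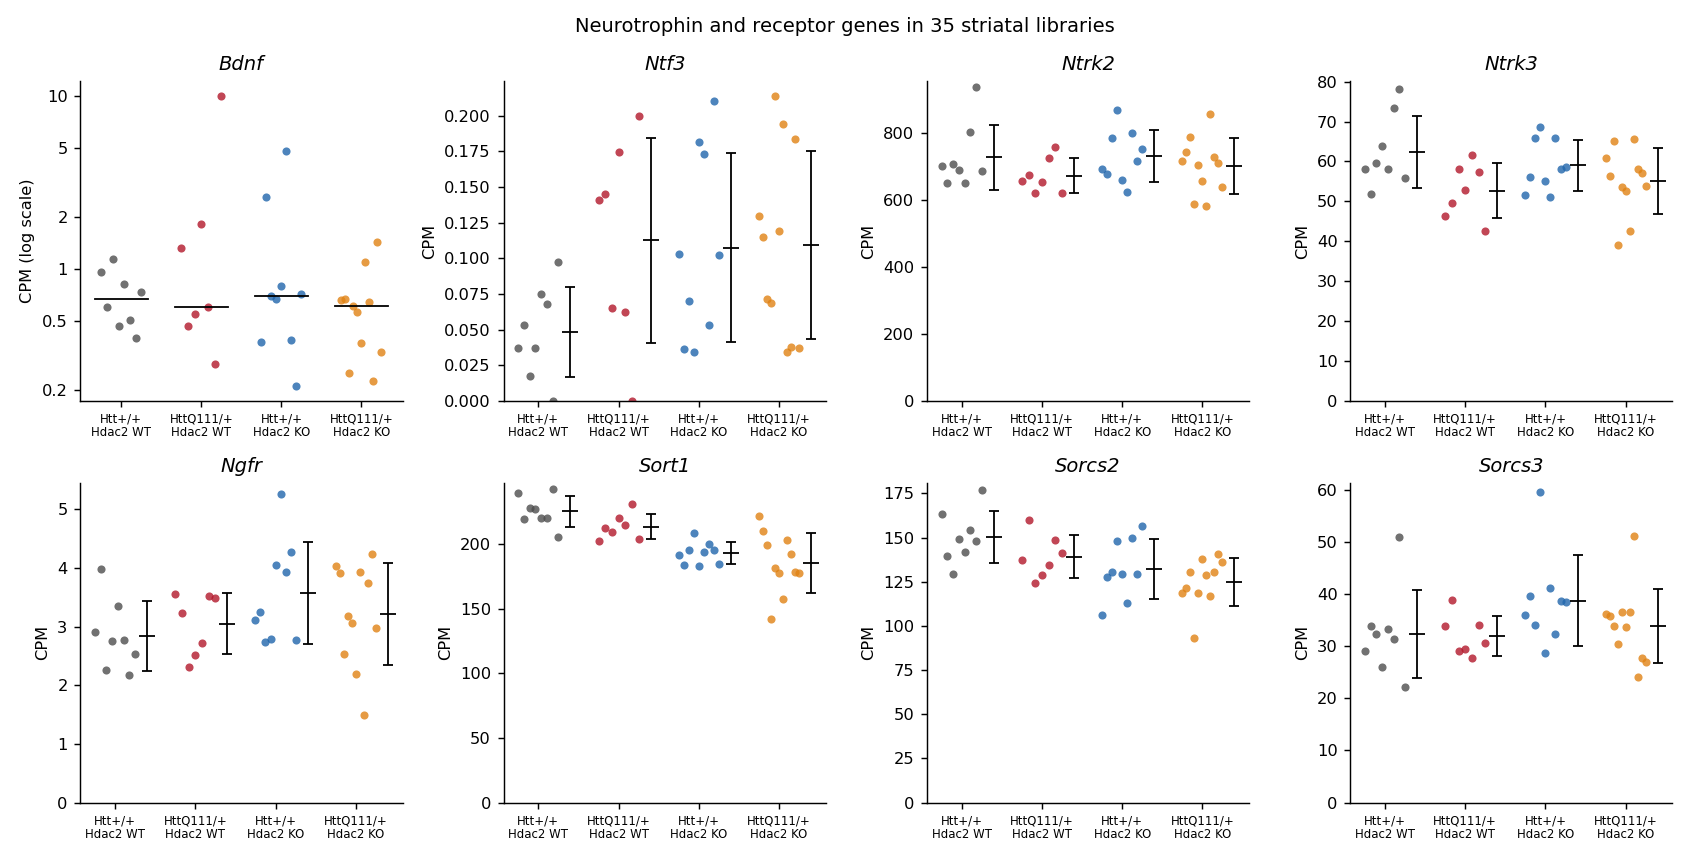
CPM (y axis) of each of the 8 genes in every library, by genotype group (x axis), with 1 point per mouse. Bdnf is on a log axis with a line at each group median, and the other genes are on linear axes from 0 with the group mean and SD. Sort1 is lower in most Hdac2 KO libraries, and 1 HttQ111/+ Hdac2 WT library reaches 10.1 CPM of Bdnf.

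Bdnf lies on the plus strand of chr2:109674700-109727007 (GRCm38, as are all positions given here), with gene identifier ENSMUSG00000048482. In Htt+/+ Hdac2 WT libraries its lowest, median and highest levels were 0.400, 0.672 and 1.15 CPM, and in HttQ111/+ Hdac2 WT libraries 0.282, 0.605 and 10.1 CPM. In Htt+/+ Hdac2 KO libraries they were 0.210, 0.700 and 4.80 CPM, and in HttQ111/+ Hdac2 KO libraries 0.227, 0.616 and 1.43 CPM. The 4 medians lay close together and the groups overlapped throughout, with 1 HttQ111/+ Hdac2 WT library and 2 Htt+/+ Hdac2 KO libraries, at 4.80 and 2.61 CPM, above the rest of their groups. Bdnf was covered by 12 to 506 counts per library. With Hdac2 KO its log2 fold change was -0.31 ± 0.35 (SE, 95% CI -1.02 to 0.40, adjusted p = 0.619) in Htt+/+ mice and -0.12 ± 0.29 (SE, 95% CI -0.71 to 0.46, adjusted p = 0.837) in HttQ111/+ mice. The intervals are wide and reach well past 0 on both sides, so that the data set little limit on a change of Bdnf in either direction.

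The libraries with high Bdnf were those with high cortical transcripts. The summed level of 9 markers of cortical projection neurons, which include the vesicular glutamate transporter gene Slc17a7 and the transcription factor gene Tbr1, was 39.5 to 500 CPM over the libraries, with group medians of 65.0, 60.6, 57.9 and 57.7 CPM in the group order above. The markers did not all vary alike. In HttQ111/+ Hdac2 WT libraries Slc17a7 reached 346 CPM, whereas Rorb was at 20.7 to 26.6 CPM. Group medians were 25.0, 24.8, 26.6 and 26.6 CPM for Rorb. For the more abundant entry of Cux2 they were 9.99, 11.4, 14.1 and 13.5 CPM, higher in the KO groups. These genes make up much of the sum in libraries near the median. The HttQ111/+ Hdac2 WT library with 10.1 CPM of Bdnf had 499.9 CPM of the cortical markers, and the Htt+/+ Hdac2 KO library with 4.80 CPM of Bdnf had 221 CPM. Over the 35 libraries, the log2 level of Bdnf followed that of the cortical markers with Pearson's r = 0.95 and Spearman's rho = 0.77, each with a permutation p of 1e-05, the smallest that 100000 permutations can give, and 0.0008 after adjustment over 80 pairs of a gene with a marker list. Without the 2 libraries farthest from the median of the markers, r was 0.85 (n = 33). Within groups r was 0.68 in Htt+/+ Hdac2 WT (n = 8), 0.99 in HttQ111/+ Hdac2 WT (n = 7), 0.94 in Htt+/+ Hdac2 KO (n = 9) and 0.90 in HttQ111/+ Hdac2 KO (n = 11) libraries. In males r was 0.83 (n = 22) and in females 0.98 (n = 13). Extraction dates held 5 or 6 libraries each, too few for a value of their own.

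**Figure D2:**
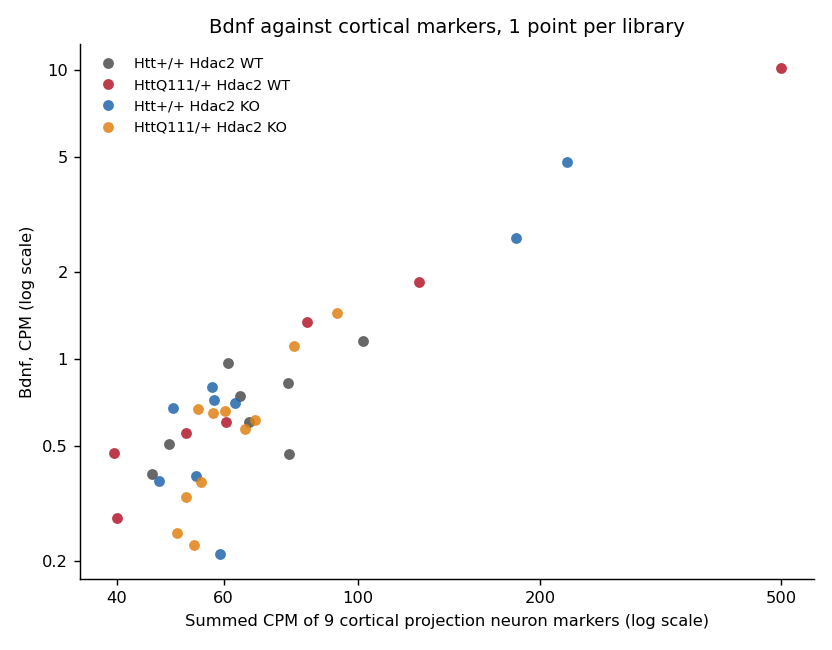
Bdnf (CPM, y axis) against the summed level of 9 cortical markers (CPM, x axis), both on log axes, with 1 point per library coloured by genotype group. The libraries rise together, and the 2 at the upper right have 499.9 and 221 CPM of the markers with 10.1 and 4.80 CPM of Bdnf.

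Without surrogate variables, Bdnf passed the test with Hdac2 KO in HttQ111/+ mice at a log2 fold change of -1.78 (adjusted p = 0.0268). Leaving out the 2 libraries highest in cortical markers as well, a choice made after seeing the data, gave -0.43 (adjusted p = 0.546), and leaving them out with surrogate variables in the model gave -0.03 (adjusted p = 0.973). The call thus came from an unadjusted model and was lost when those 2 libraries were left out. Of the 2, only the HttQ111/+ Hdac2 WT library belongs to the groups compared, and the other is an Htt+/+ Hdac2 KO library. In bulk striatum, fewer cells of a type and less RNA per cell cannot be told apart for any of these genes.

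Ntf3 (minus strand of chr6:126101413-126166744) was close to the limit of detection. It had 0 to 5 counts in Htt+/+ Hdac2 WT, 0 to 10 in HttQ111/+ Hdac2 WT, 2 to 12 in Htt+/+ Hdac2 KO and 2 to 13 in HttQ111/+ Hdac2 KO libraries, with group medians of 0.0453, 0.140, 0.102 and 0.115 CPM. In 2 libraries no read was counted, which allows up to 3 counts, or 0.0388 to 0.0615 CPM at the depths of the 35 libraries, for counting error alone. The Htt+/+ Hdac2 WT group was the lowest and overlapped each of the others. Exact two-sided permutation tests on CPM gave p = 0.0354 for Hdac2 KO in Htt+/+ mice and p = 0.0429 for HttQ111/+ in Hdac2 WT mice, both 0.0858 after adjustment over 4 comparisons. For Hdac2 KO in HttQ111/+ mice and for HttQ111/+ in Hdac2 KO mice the exact permutation p was 0.928 and 0.941. After adjustment no difference of Ntf3 passed. Of the 35 libraries, 2 had no count of Ntf3 and 10 had 1 to 3.

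Ntrk2, the gene of TrkB on the plus strand of chr13:58806596-59133970, was the most abundant of the 8 genes. Its lowest, median and highest levels were 651, 697 and 939 CPM in Htt+/+ Hdac2 WT, and 620, 657 and 760 CPM in HttQ111/+ Hdac2 WT libraries. The KO groups had 625, 717 and 870 CPM in Htt+/+ and 583, 711 and 860 CPM in HttQ111/+ libraries. The 4 groups overlapped over most of their ranges. With Hdac2 KO the log2 fold change of Ntrk2 was 0.01 (95% CI -0.08 to 0.11, adjusted p = 0.877) in Htt+/+ and 0.06 (95% CI -0.03 to 0.14, adjusted p = 0.390) in HttQ111/+ mice, so a change beyond 0.14 in size lies outside both intervals. Ntrk2 had a rank correlation with the cortical markers of rho = -0.52 (adjusted permutation p = 0.0352), while its Pearson's r of -0.43 did not pass (adjusted permutation p = 0.115). Whether cortical RNA has a part in the levels of Ntrk2 was not tested.

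Ntrk3, which encodes TrkC on the minus strand of chr7:78192362-78577975, had group medians of 58.9, 53.0, 58.1 and 56.3 CPM in the same order of groups, within a range of 39.2 to 78.2 CPM. With Hdac2 KO its log2 fold change was -0.02 (95% CI -0.13 to 0.09, adjusted p = 0.894) in Htt+/+ and 0.07 (95% CI -0.03 to 0.16, adjusted p = 0.372) in HttQ111/+ mice. Neither receptor kinase gene passed the test in any of the 5 pairwise comparisons, apart from Ntrk3 at -0.09 (adjusted p = 0.0433) between HttQ111/+ Hdac2 KO and Htt+/+ Hdac2 WT mice when those groups were fitted alone. Across the 35 libraries, Ntrk2 and Ntrk3 varied together with r = 0.86, and among 13703 genes Ntrk2 was the gene whose log2 CPM was most like that of Ntrk3.

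Ngfr, whose product p75 binds all neurotrophins and, with sortilins, their precursors, lies on the minus strand of chr11:95568818-95587735. Its median was 2.77 CPM in Htt+/+ Hdac2 WT (range 2.18 to 3.99) and 3.23 CPM in HttQ111/+ Hdac2 WT libraries (range 2.31 to 3.56). With Hdac2 KO the medians were 3.25 CPM (range 2.75 to 5.27) in Htt+/+ and 3.18 CPM (range 1.50 to 4.25) in HttQ111/+ libraries. The unadjusted Ngfr mean of Htt+/+ KO libraries, 3.58 ± 0.86 CPM (SD, n = 9), was above that of the WT libraries, 2.85 ± 0.59 CPM (SD, n = 8). The model with surrogate variables gave Ngfr log2 fold changes of -0.12 (95% CI -0.44 to 0.20, adjusted p = 0.678) and -0.23 (95% CI -0.51 to 0.05, adjusted p = 0.298), and without surrogate variables the values were 0.33 and 0.071, so Ngfr has no settled direction here. In males alone, Ngfr passed the test with Hdac2 KO in HttQ111/+ mice at -0.49 (adjusted p = 0.0217); the difference between the sexes was not tested. Ngfr followed the markers of endothelial and mural cells by rank (rho = 0.50, adjusted permutation p = 0.0352; r = 0.47, adjusted permutation p = 0.0918), and the part of those cells in its values was not tested.

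The sortilin family held the 2 members called with Hdac2 KO in the main fits, Sort1 and Sorcs2. Both calls were lost with extraction date as a covariate, and date and Hdac2 genotype can hardly be told apart. Sort1 encodes sortilin, a sorting receptor that also directs the trafficking of BDNF, and lies on the plus strand of chr3:108284091-108357870 (ENSMUSG00000068747). In Htt+/+ mice it had a lowest, median and highest level of 206, 224 and 243 CPM in Hdac2 WT and 183, 194 and 209 CPM in Hdac2 KO libraries. In HttQ111/+ mice the values were 202, 213 and 231 CPM in Hdac2 WT and 142, 181 and 222 CPM in Hdac2 KO libraries. In Htt+/+ mice 8 of 9 KO libraries lay below all 8 WT libraries, and in HttQ111/+ mice 8 of 11 KO libraries lay below all 7 WT libraries. Sort1 fell with Hdac2 KO by a log2 fold change of -0.20 ± 0.036 (SE, adjusted p = 0.000122), or -13.1%, in Htt+/+ mice, and of -0.17 ± 0.031 (SE, adjusted p = 0.00016), or -11.3%, in HttQ111/+ mice.

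Sorcs2 encodes SorCS2, which forms a receptor for proBDNF with p75, and lies on the minus strand of chr5:36017180-36398139 (ENSMUSG00000029093). Its lowest, median and highest levels in Htt+/+ mice were 129, 149 and 177 CPM in Hdac2 WT and 106, 129 and 156 CPM in Hdac2 KO libraries. In HttQ111/+ mice they were 124, 137 and 159.9 CPM in Hdac2 WT and 93.1, 129 and 141 CPM in Hdac2 KO libraries. KO and WT ranges of Sorcs2 overlapped more than those of Sort1, with 5 of 9 and 5 of 11 KO libraries below all WT libraries of the same Htt genotype. Sorcs2 fell with Hdac2 KO by -0.22 ± 0.056 (log2, SE, adjusted p = 0.00574), or -13.9%, in Htt+/+ mice and by -0.15 ± 0.050 (log2, SE, adjusted p = 0.0334), or -9.97%, in HttQ111/+ mice. Genes that overlap Sort1 or Sorcs2 on the opposite strand had at most 6 counts in any library. The Sorcs2 call in Htt+/+ mice was lost without replicate 2 of Htt+/+ Hdac2 WT (adjusted p = 0.0595). The call in HttQ111/+ mice was lost on leaving out any of 6 single libraries, namely HttQ111/+ Hdac2 WT replicates 1, 5 and 6 and HttQ111/+ Hdac2 KO replicates 3, 5 and 8 (adjusted p up to 0.23). Without the 2 libraries highest in cortical markers, a choice made after seeing the data, Sorcs2 was at -0.19 (adjusted p = 0.0312) in Htt+/+ and -0.13 (adjusted p = 0.0982) in HttQ111/+ mice, while Sort1 was at -0.21 (adjusted p = 0.000382) and -0.16 (adjusted p = 0.00103).

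Sorcs3, a neuronal member of the family on the plus strand of chr19:48206025-48805505, had group medians of 31.8, 30.7, 38.5 and 33.8 CPM, with 22.1 to 59.4 CPM over all libraries. Its log2 fold change with Hdac2 KO was 0.26 (95% CI -0.01 to 0.52, adjusted p = 0.189) in Htt+/+ and 0.21 (95% CI -0.02 to 0.44, adjusted p = 0.224) in HttQ111/+ mice. Averaged over both Htt genotypes, Sorcs3 was at 0.24 with KO (95% CI 0.05 to 0.44), with an unadjusted p of 0.0169 and an adjusted p of 0.0634. Sorcs3 passed the test in Htt+/+ mice when only the 2 groups compared were fitted (0.33, adjusted p = 0.00559) or with the series of mouse IDs as a covariate (0.39, adjusted p = 0.026). Its average effect passed with ID series (0.23, adjusted p = 0.0443) and without a count filter (0.30, adjusted p = 0.0214).

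Of the 7 members tested, 2 were called down and 0 up with Hdac2 KO in Htt+/+ mice, where 17.8% of all genes tested were called in either direction, and again in HttQ111/+ mice, where 16.5% were called. At such a background, 2 of 7 genes is not a result about the group as a whole. The same 2 genes, Sort1 and Sorcs2, were called in both. The median log2 fold change of the 7 members was -0.12 in each comparison, beside medians of -0.0014 and -0.0044 over all genes. With 7 genes this median is the value of a single gene, Ngfr in Htt+/+ and Bdnf in HttQ111/+ mice. Both have intervals that include 0, so the median does not show a shift of the group. Averaged over both Htt genotypes, where 25% of all genes were called, Sort1 (-0.18, adjusted p = 3.24e-06) and Sorcs2 (-0.18, adjusted p = 0.00116) were again called down.

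**Figure D3:**
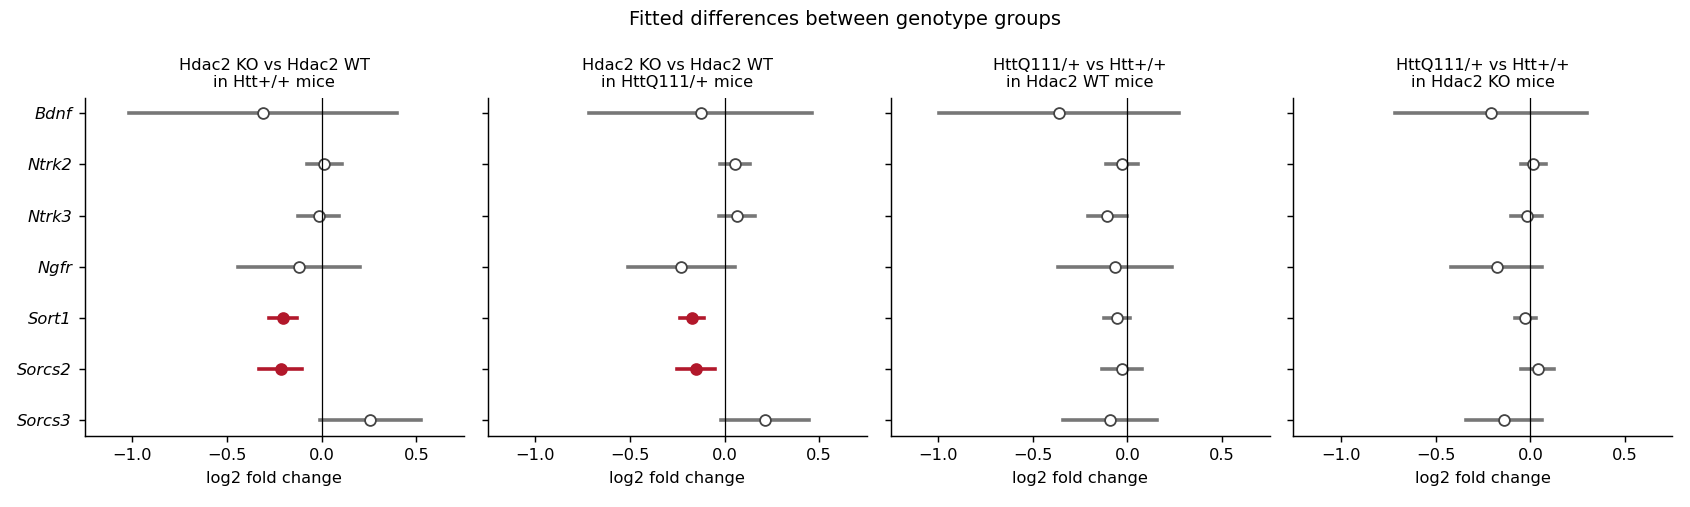
Log2 fold changes (x axis) of the 7 tested members (y axis) in 4 pairwise comparisons, with 95% confidence intervals; filled red points have an adjusted p under 0.05. Only Sort1 and Sorcs2 are filled, in the comparisons of Hdac2 KO with WT, and the intervals of Bdnf are the widest.

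The fall of Sort1 was called in 10 of 12 other settings in Htt+/+ mice and in 11 of 12 in HttQ111/+ mice, and in all 35 fits that left out 1 library. Those 35 fits kept the surrogate variables estimated from all libraries, and some left out a library of a group not compared. Sorcs2 was called in 8 of 12 and 5 of 12 other settings. With extraction date as a covariate in place of the surrogate variables, Sort1 was at -0.11 (adjusted p = 0.62) in Htt+/+ and -0.09 (adjusted p = 0.73) in HttQ111/+ mice, and Sorcs2 at -0.09 (adjusted p = 0.767) and 0.0019 (adjusted p = 0.997), so both calls were lost. Within 25 May, the single KO library, an HttQ111/+ mouse, had 222 CPM of Sort1 beside 204 to 243 CPM in 5 WT libraries. Within 27 May, the single KO library, an Htt+/+ mouse, had 185 CPM of Sort1 beside 209 to 228 CPM in 5 WT libraries. For Sorcs2 the order was the other way round, with 119 CPM beside 129 to 177 CPM on 25 May and 156 CPM beside 124 to 154 CPM on 27 May. Each gene was thus below the WT libraries on 1 of the 2 shared dates and not on the other. Each of these dates holds only 1 KO library.

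**Figure D4:**
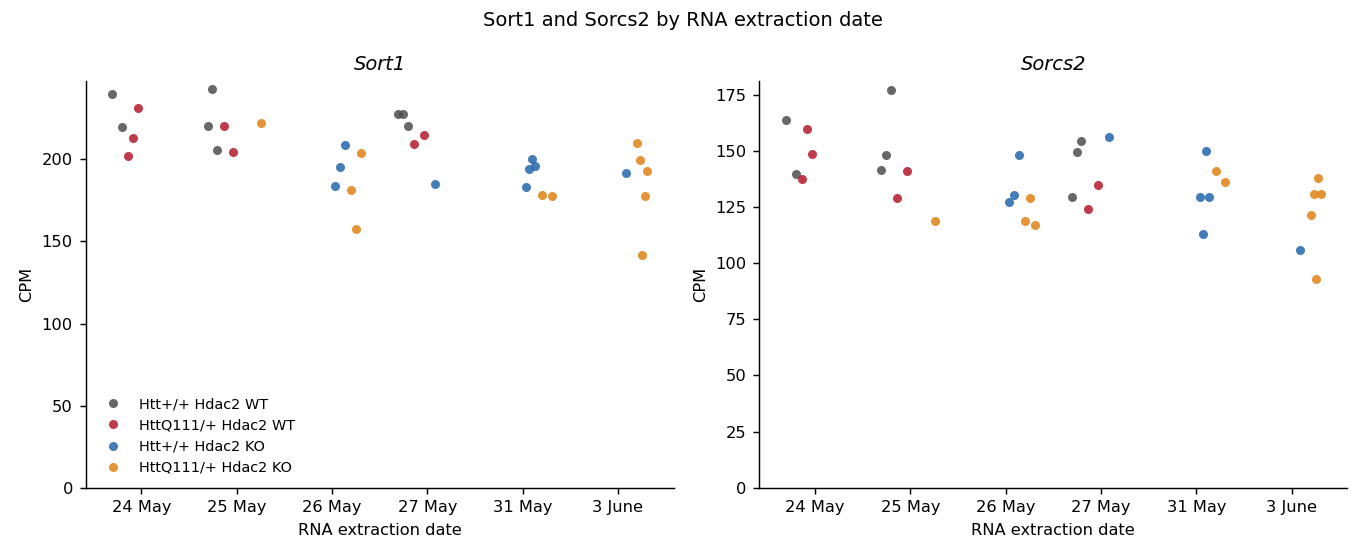
Sort1 and Sorcs2 (CPM, y axis) in each library by date of RNA extraction (x axis), with Hdac2 WT and KO libraries in different colours. Only 25 and 27 May hold both, with 1 KO and 5 WT libraries each; the KO library is below the WT libraries in Sort1 on 27 May and in Sorcs2 on 25 May.

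Sorcs2 also varied with the MSN markers by rank (rho = 0.51, adjusted permutation p = 0.0352), while r was 0.42 (adjusted permutation p = 0.115). With group means removed, r of Sorcs2 was 0.51 with MSN markers. It was higher with markers of cholinergic neurons (0.65), astrocytes (0.58) and microglia (0.57). The summed median of the MSN markers was 8587, 6151, 8398 and 7280 CPM in the 4 groups. Among the MSN markers, Penk had a median of 1946 CPM in Htt+/+ Hdac2 WT and 1166 CPM in HttQ111/+ Hdac2 WT libraries. The authors list Penk and Ppp1r1b among the genes that the HttQ111 allele dysregulates. The summed markers therefore do not measure the share of MSNs alone. Sort1 was related by rank to the microglial markers (rho = -0.52, adjusted permutation p = 0.0352), while r was -0.35 (adjusted permutation p = 0.15). With group means removed, r of Sort1 with these markers was -0.21. The summed median of the microglial markers was 321 and 306 CPM in WT and 356 and 321 CPM in KO groups. The permutations moved libraries across groups, so differences between groups count toward these p-values. The part of any of these cell types in these results was not tested.

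The HttQ111 allele changed none of the members past the test. Among Hdac2 WT mice, where 0.403% of all genes were called, 0 of 7 members passed edgeR's quasi-likelihood test, 1 had an unadjusted p under 0.05, and DESeq2 called 0. That member was Ntrk3, with a log2 fold change of -0.11 ± 0.050 (SE, p = 0.0411, adjusted p = 0.429). Its mean level was 62.4 ± 9.04 CPM (SD, n = 8) in Htt+/+ and 52.7 ± 6.93 CPM (SD, n = 7) in HttQ111/+ mice. Sort1 was at -0.06 (adjusted p = 0.572), Ntrk2 at -0.03 (95% CI -0.11 to 0.06, adjusted p = 0.873), Sorcs2 at -0.03 (adjusted p = 0.905) and Sorcs3 at -0.09 (adjusted p = 0.853). For Ngfr the value was -0.07 (95% CI -0.37 to 0.23, adjusted p = 0.92). Bdnf was at -0.36 (95% CI -0.997 to 0.27, adjusted p = 0.739) in the model with surrogate variables, but at 1.60 without them and at 0.26 without them and without the 2 libraries highest in cortical markers, so that no direction can be given for Bdnf.

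Among Hdac2 KO mice, where 0.00584% of all genes were called, 0 members passed edgeR's test, 0 had an unadjusted p under 0.05, and DESeq2 called 0. Ntrk2 was at 0.02 (95% CI -0.05 to 0.08, adjusted p = 0.958), Ntrk3 at -0.02 (95% CI -0.10 to 0.06, adjusted p = 0.958) and Bdnf at -0.21 (95% CI -0.72 to 0.30, adjusted p = 0.913). Averaged over both Hdac2 genotypes, with 1.27% of all genes called, the HttQ111 allele gave 0 members by edgeR's test, 0 at an unadjusted p under 0.05 and 0 by DESeq2. Ntrk3, at -0.07 (p = 0.0523, adjusted p = 0.411), was nearest to passing.

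HttQ111/+ Hdac2 KO libraries were also compared with Htt+/+ Hdac2 WT libraries, a comparison that shares groups with those above. Sort1 was at -0.23 ± 0.034 (log2, SE, adjusted p = 7.60e-06), or -14.8%, and Sorcs2 at -0.18 ± 0.052 (log2, SE, adjusted p = 0.0119), or -11.8%, and these were the 2 of 7 members called, beside 21.2% of all genes. The Sorcs2 call was lost without Htt+/+ Hdac2 WT replicate 2 or HttQ111/+ Hdac2 KO replicate 8, with adjusted p up to 0.123. The other 5 members did not pass, with Bdnf at -0.50 ± 0.32 (log2, SE, adjusted p = 0.295) and Ngfr at -0.29 (adjusted p = 0.178).

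The effect of Hdac2 KO on the members did not pass a test of difference between the Htt genotypes. This interaction called 0.00577% of all genes and 0 members by edgeR's test, with 0 at an unadjusted p under 0.05 and 0 by DESeq2. The difference between the KO effects, HttQ111/+ minus Htt+/+, was 0.03 (95% CI -0.06 to 0.11, adjusted p = 0.975) for Sort1 and 0.07 (95% CI -0.07 to 0.21, adjusted p = 0.938) for Sorcs2. For Sorcs2 the interval includes differences as large as the average KO effect of -0.18.

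Among 88 other genes of neurotrophin production and signalling, 84 were tested. Of these, 12 were called up and 8 down with Hdac2 KO in Htt+/+ mice, and 8 up and 13 down in HttQ111/+ mice, which is 23.8% and 25% of those tested, beside 17.8% and 16.5% of all genes. These shares of all genes are also the background of the counts per list that follow. The calls of these other genes were not examined in the other settings. With extraction date as a covariate, calls over all genes went from 3056 to 822 in Htt+/+ and from 2841 to 331 in HttQ111/+ mice. In the sortilin family, Sorl1, a sorting receptor of endosomes, joined Sort1 and Sorcs2 among the genes called down, with log2 fold changes of -0.30 (adjusted p = 4.10e-05) and -0.32 (adjusted p = 2.89e-06). The fifth family member, Sorcs1, was at 0.09 (adjusted p = 0.177) and 0.08 (adjusted p = 0.192). The family's median was -0.20 in Htt+/+ mice, which is the value of Sort1, and -0.15 in HttQ111/+ mice, that of Sorcs2. Over all genes the medians were -0.0014 and -0.0044. In both, 3 of its 5 genes were called down and 0 up, 2 of them the members described above. Averaged over both Htt genotypes, where 25% of all genes were called, 3 were called down and 1, Sorcs1, up. The family thus did not move in 1 direction.

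Among the other receptors and ligands, 0 were called with Hdac2 KO by edgeR's test in either Htt genotype, and 0 of the tested Trk, p75 and ligand genes had an unadjusted p under 0.05. Ntf5, the gene of neurotrophin-4, averaged 0.0139 CPM and was not tested.

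Of 12 genes that act in the transcription or transport of Bdnf, 2 were called up and 3 down in Htt+/+ mice, and 2 up and 5 down in HttQ111/+ mice. Hap1, a huntingtin-associated protein of vesicle transport, rose by 0.65 (adjusted p = 2.03e-06) and 0.42 (adjusted p = 0.000232). The transcriptional co-activator gene Crtc1 fell by 0.14 (adjusted p = 0.00169) and 0.20 (adjusted p = 6.32e-06). Rest, a repressor of neuronal genes, was at 0.23 (adjusted p = 0.0567) in Htt+/+ and rose by 0.34 (adjusted p = 0.00168) in HttQ111/+ mice. Its co-repressor gene Rcor1 rose by 0.21 (adjusted p = 0.00633) in Htt+/+ mice and was at 0.13 (adjusted p = 0.066) in HttQ111/+ mice, and the kinesin light chain gene Klc1 fell by 0.15 (adjusted p = 0.00237) and 0.12 (adjusted p = 0.00628).

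Among 10 partners of p75, 2 were called up and 0 down in Htt+/+ mice, and 2 up and 1 down in HttQ111/+ mice. The p75-binding genes Maged1 (0.17 and 0.10, adjusted p = 0.000129 and 0.00691) and Ngfrap1 (0.16 and 0.09, adjusted p = 0.000251 and 0.0228) were called up in both, and the kinase gene Irak1 was called down in HttQ111/+ mice (-0.12, adjusted p = 0.0193). Of 11 genes that process proneurotrophins, 1 was called up in Htt+/+ and 1 up and 1 down in HttQ111/+ mice, among them Serpini1, the gene of neuroserpin, which was down in HttQ111/+ mice (-0.19, adjusted p = 0.00506). Of 17 Trk adaptor genes 4 were up and 0 down, then 1 up and 2 down, and of 20 effector genes 3 were up and 3 down, then 1 up and 3 down. The adaptor gene Shc2 was up in both (0.18 and 0.13, adjusted p = 0.00279 and 0.0154), and Sh2b2 in Htt+/+ mice (0.59, adjusted p = 0.026). In HttQ111/+ mice the adaptor gene Crkl (-0.13, adjusted p = 0.0225) and the phosphatase gene Ptpn11 (-0.08, adjusted p = 0.0384) were down. The kinase gene Camk2a (-0.26 in each, adjusted p = 0.00246 and 0.000833) was among the effectors called down, while Rps6ka2 (0.17, adjusted p = 0.0163) and the Ras gene Nras (0.12, adjusted p = 0.0113) were up in Htt+/+ and Camk4 (0.14, adjusted p = 0.0481) in HttQ111/+ mice.

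Of 11 genes known to respond to TrkB signalling, 1 was called with Hdac2 KO in each Htt genotype, Egr1 at -0.29 (adjusted p = 0.0226) in Htt+/+ and Vgf at 0.19 (adjusted p = 0.0463) in HttQ111/+ mice. Homer1, a scaffold gene of the synapse and an activity-dependent gene, was the only one of the 84 called with HttQ111/+ among Hdac2 WT mice, at -0.33 ± 0.068 (SE, adjusted p = 0.0222), which is 1.19% of the 84 beside 0.403% of all genes. Among Hdac2 KO mice Homer1 was at -0.22 (adjusted p = 0.155).

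**Figure D5:**
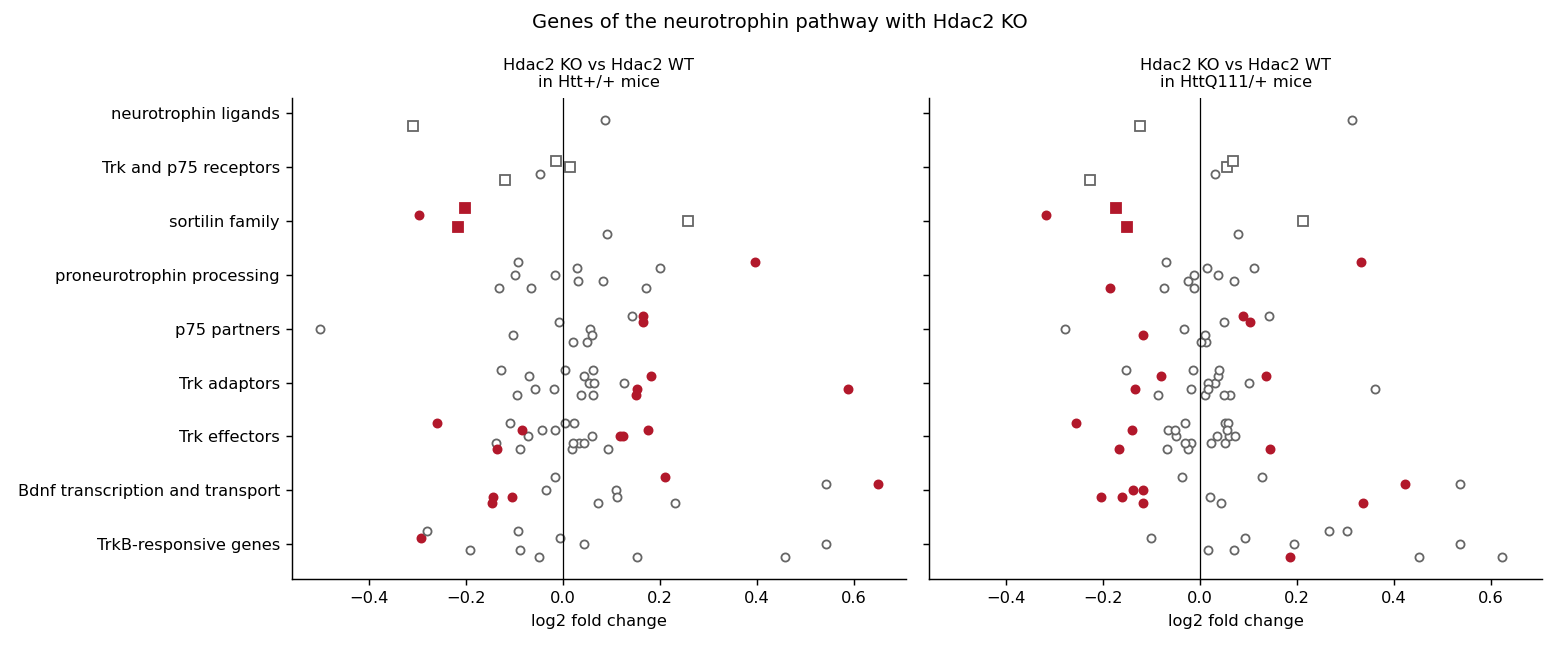
Log2 fold changes with Hdac2 KO (x axis) of the neurotrophin pathway genes in each list (y axis), for Htt+/+ and HttQ111/+ mice in separate panels. Squares are the members, circles the other genes, and filled red marks have an adjusted p under 0.05. The sortilin family has 3 of 5 genes called down in both panels, 2 of them members. Over all genes, 17.8% and 16.5% were called in either direction.

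The genes whose log2 CPM over the 35 libraries was most like that of each member were sought among 13703 genes, as a description over libraries that share their depth and groups. For Bdnf these were 3110035E14Rik (r = 0.96), C1ql3 (r = 0.94) and Nrn1 (r = 0.94). For Sort1 they were Ank3, Ash1l and Gas7 (each r = 0.93), and for Sorcs2 they were Rasd2 (r = 0.90), Smpd3 (r = 0.89) and Efr3b (r = 0.87). Sort1 and Sorcs2 had r = 0.51 with each other, and 0.19 once group means were removed. Sort1 and Ntrk3 had r = 0.58, and 0.72 once group means were removed. Ntrk2 was most like Nebl (r = 0.89), Ntrk3 and Snx27 (r = 0.84), and Ntrk3 was most like Ntrk2, Lrrc7 and Fam135b (r = 0.85 for both of the latter). Sorcs3 was most like Dennd2a, Lin7a (each r = 0.76) and Dab1 (r = 0.74), and Ngfr most like Itpkb (r = 0.70), Pvalb and Smyd1 (each r = 0.69). For Ntf3, at 0 to 13 counts per library, the values were r = 0.66 with Gpc1, and r = 0.65 with Itga7 and Angel1.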

How the data were processed

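The authors sequenced stranded mRNA libraries, aligned reads with GSNAP to GRCm38 and used bedtools to count uniquely aligned reads across each Ensembl gene from start to end, introns included; whether the counting used strand is not given in the sources used here. The deposited values are raw counts per gene and library, not normalized. Of 39109 entries, 92 ERCC spike-ins, 6152 genes spanning up to 250 nt and 2 mitochondrial rRNA genes were left out, and 32863 genes were kept.

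Counts were scaled by TMM and tested with edgeR 4.0.16 (quasi-likelihood F test, R 4.3.3) over all 35 libraries, with 9 surrogate variables from sva 3.50.0 in each fit, for genes that reached 6 counts in each library of at least 1 compared group (17346 over the 4 groups). Benjamini-Hochberg adjustment covered all genes of a comparison, and called means an adjusted p under 0.05. Fold changes are log2 values with the surrogate variables in the model, whereas CPM values are not adjusted for them. CPM per kilobase used the union of exons in the annotation of the same build, and log2 CPM for correlations used a pseudocount of 0.5. Ntf3 was compared by exact permutation tests. Permutation tests of correlations moved values over all 35 libraries, so differences between groups count toward their p-values. The procedure was tested on simulated data. Counting intervals and limits cover counting error only, and p-values measure the spread between mice, with 1 library each. Every pair of libraries of a group differed by more than sampling noise.

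The alternatives were no covariates, sex, extraction date or ID series in place of the surrogate variables, a replicate block, only the groups compared, males only, RLE size factors in place of TMM, the DESeq2 1.42.0 Wald test with the same surrogate variables, no count filter and leaving out each library. The 8 members are named by the rule that chose them, and from the pathway lists every ligand, receptor and sortilin gene is named and, in each other list, the 2 genes with the largest rise and the 2 with the largest fall among those called in a comparison, apart from some genes that are not reported here. The 3 genes most like a member come from genes with a mean CPM of at least 2. The members and the lists were chosen with earlier results of these data known. No sequences are shown, because counts per whole gene do not bear on one.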

Additional observations from a re-analysis of the deposited data

Results flagged for a closer look

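Of 24 sets of values (8 genes in each of the 3 groups with 7 to 9 libraries), 3 had a library far from the others by Dixon's test, which chance gives in about 1 of 20 sets. Bdnf was at 10.1 CPM in HttQ111/+ Hdac2 WT replicate 7, the highest of 7, and that library also had the highest summed level of cortical markers, 499.9 CPM. Sorcs3 was at 50.9 CPM in Htt+/+ Hdac2 WT replicate 8, the highest of 8. Sorcs3 was at 59.4 CPM in Htt+/+ Hdac2 KO replicate 4, the highest of 9. The average Sorcs3 effect of Hdac2 KO passed the test without either Htt+/+ Hdac2 WT replicate 8, Htt+/+ Hdac2 WT replicate 6, HttQ111/+ Hdac2 WT replicate 2 or Htt+/+ Hdac2 KO replicate 3 (lowest adjusted p 0.0215), and did not pass with all 35 libraries or without Htt+/+ Hdac2 KO replicate 4.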

How the results depend on the processing

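Over 12 other settings for each pairwise comparison and 11 for each combined effect, 534 of 651 member values kept their sign and their side of the threshold, 9 gained a call, 19 lost one and 89 changed sign. Leaving out 1 library kept 1918 of 1960, with 4 gained, 9 lost and 29 with a changed sign. The cause of these changes was not tested.

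With Hdac2 KO in Htt+/+ mice, 2 members were called, and 0 with extraction date, 0 with the replicate block, 1 without surrogate variables, 1 without surrogate variables and the 2 libraries highest in cortical markers, and 1 to 2 with 1 library left out; Sorcs3 was added, giving 3, with ID series and with only the groups compared. In HttQ111/+ mice 2 were called, and 0 with date, 1 with sex, 1 with ID series, 1 with the block, 1 without those 2 libraries, 1 without them and surrogate variables, and 1 to 2 with 1 library left out; without surrogate variables the 2 were Bdnf and Sort1, and in males Ngfr was added, giving 3. For HttQ111/+ Hdac2 KO against Htt+/+ Hdac2 WT the 2 became 0 with date, 1 with the block, 1 to 2 with 1 library left out, and 3 in males (with Ngfr) and with only the groups compared (with Ntrk3). For the average Hdac2 KO effect they became 0 with date, 1 with the block, 3 in males (with Ngfr), and 3 with ID series, without a count filter and without any of 4 single libraries (with Sorcs3). Leaving out the 2 cortical-rich libraries was chosen after seeing the data.

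Replicate numbers were not treated as pairs in the main fits. Same-numbered libraries deviated together with r over 0.1 in 2 of 8, 1 of 7, 3 of 6, 2 of 9 and 6 of 8 pairs, in the order of the comparisons. Libraries were most like their own number in 1, 1, 2, 1 and 4 of these pairs. Between the double mutants and controls, r of the pairs ran from 0.029 to 0.29. With a replicate block, calls over all genes went from 3056 to 843 with Hdac2 KO in Htt+/+ and from 2841 to 2143 in HttQ111/+ mice, from 69 to 0 and 1 to 0 for the HttQ111 allele in Hdac2 WT and KO mice, and from 3627 to 1641 between the double mutants and controls. With extraction date the same 5 counts were 822, 331, 419, 0 and 798, and in males 1970, 1711, 10, 0 and 2263. Other settings that moved a count over all genes by more than 1.5 times were the fit of only the groups compared, with 5094, 0, 3 and 5619 in place of 3056, 69, 1 and 3627, and for the HttQ111 allele in Hdac2 WT mice ID series (837), DESeq2 (154), no count filter (34) and no surrogate variables without the cortical-rich libraries (21). For the allele in KO mice, 1 gene became 2 with ID series, 3 with RLE factors, 4 without the filter and 45 with DESeq2. The average HttQ111 effect went from 220 to 5 (block), 119 (males), 133 (without cortical-rich libraries), 144 (no filter), 367 (DESeq2), 403 (date) and 629 (ID series), the average KO effect from 4341 to 802 (date) and 2218 (block), and the interaction from 1 to between 0 and 7. With 1 library left out, the HttQ111 count in Hdac2 WT mice was 23 (without HttQ111/+ Hdac2 WT replicate 3) to 143 (without replicate 2 of that group), that in KO mice 0 to 33 (without HttQ111/+ Hdac2 KO replicate 11), the interaction 0 to 2 and the average HttQ111 effect 86 (without Htt+/+ Hdac2 KO replicate 1) to 314; the Hdac2 KO counts moved by less than 1.5 times.

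Signs changed as follows, in log2. For Ngfr, Hdac2 KO in Htt+/+ mice gave 0.33 without surrogate variables, 0.31 with sex, 0.38 with date, 0.19 with ID series, 0.27 with only those groups, and 0.24 without surrogate variables and cortical-rich libraries. In HttQ111/+ mice Ngfr gave, in that order without the fit of 2 groups, 0.071, 0.087, 0.28, 0.085 and 0.11. For HttQ111/+ in Hdac2 WT mice Ngfr gave 0.10, 0.092, 0.036, 0.014, 0.17 (only those groups), 0.0094 (males) and 0.064, for double mutants against controls 0.17, 0.18, 0.31, 0.098, 0.021 (only those groups) and 0.17, and for the average KO effect 0.20, 0.20, 0.33, 0.14 and 0.17.

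For Bdnf, Hdac2 KO in Htt+/+ mice gave 0.82 without surrogate variables, 0.51 with sex, 0.41 with ID series, 0.22 with only those groups, and 0.19 without surrogate variables and cortical-rich libraries. The HttQ111 effect on Bdnf in Hdac2 WT mice gave 1.60, 1.30 (sex), 1.10 (date), 1.22 (ID series) and 0.26 (no surrogate variables, no cortical-rich libraries), the interaction -2.60, -1.86, -1.83, -1.92 and -0.62, and the average HttQ111 effect 0.30, 0.37, 0.18 and 0.26 in the first 4 of these settings.

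For Ntrk2, Hdac2 KO in Htt+/+ mice gave -0.0083 without the cortical-rich libraries, the HttQ111 effect in KO mice -0.057, -0.059, -0.065, -0.066 and -0.085 in the 5 settings above, double mutants against controls -0.057, -0.058, -0.028, -0.049 and -0.057, and -0.0047 without the cortical-rich libraries alone, and the average HttQ111 effect 0.016 with the block and 0.0076 without a count filter. For Ntrk3, Hdac2 KO in Htt+/+ mice gave 0.039 in males and 0.0027 without the filter, the HttQ111 effect in KO mice 0.0057 with only those groups, double mutants against controls 0.0097 in males and 0.0024 without the filter, and the average KO effect -0.0085 without surrogate variables, -0.0088 with sex and -0.023 without surrogate variables and cortical-rich libraries.

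For Sorcs2, Hdac2 KO in HttQ111/+ mice gave 0.0019 with date, the HttQ111 effect in WT mice 0.024 with the block, that in KO mice -0.081, -0.062, -0.037, -0.047 and -0.11 in the 5 settings above, and the average HttQ111 effect -0.097, -0.089, -0.084, -0.092 and -0.11, and -0.011 without the cortical-rich libraries alone. For Sorcs3, the HttQ111 effect in WT mice gave 0.054 with ID series and 0.083 with only those groups, that in KO mice 0.089, the interaction 0.16 and the average HttQ111 effect 0.015 with the block. The interaction for Sort1 was -0.0065 in males.

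With 1 library left out, signs changed for Hdac2 KO in Htt+/+ mice in Ntrk2 (-0.041 to 0.033) and Ntrk3 (-0.067 to 0.0064), in HttQ111/+ mice in Bdnf (-0.35 to 0.11), for HttQ111/+ in WT mice in Ngfr (-0.17 to 0.0058), Ntrk2 (-0.076 to 0.0038) and Sorcs2 (-0.063 to 0.0042), in KO mice in Sorcs2 (-0.0027 to 0.058), for double mutants in Ntrk2 (-0.030 to 0.048), for the interaction in Ngfr (-0.23 to 0.049), Sorcs3 (-0.11 to 0.065) and Bdnf (-0.18 to 0.54), and for the average effects in Ntrk2 (-0.033 to 0.0069), Sorcs2 (-0.022 to 0.019) and Ntrk3 (-0.0039 to 0.045). Sort1 kept its sign and its calls in all 35 such fits. Depth limits Ntf3, with at most 13 counts in a library, and Bdnf, with as few as 12.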
